A study of Mus musculus with 4 samples.

Results

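The nuclear genes for subunits of the oxidative phosphorylation complexes are described here, complex by complex, in the liver of Wrn mutant mice given vitamin C or left untreated. The 39 genes were a named list of subunits. They comprised 13 of complex I, 4 of complex II, 5 of complex III, 8 of complex IV and 7 of complex V, together with Ndufa4 and cytochrome c (Cycs). Each array probe was given the symbol that its RefSeq accession carries, and all 39 genes were measured, with 48 probes, among 31077 genes or accessions tested. Ndufa4 was named for complex I and is now placed in complex IV, and cytochrome c is a mobile carrier, so both are given apart from the complexes' medians.

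The mice were males of the C57Bl/6 strain, 3 months old, and all of them carried the Wrn mutation, so no liver with intact Wrn was compared here. The labels do not say which change in Wrn, the mouse counterpart of the Werner syndrome helicase, these mice had. Treated mice drank water with 0.4% vitamin C from weaning on, and the other mice received no treatment. Each of the 4 Agilent 2-colour arrays held 1 treated liver labelled with Cy3 and 1 untreated liver labelled with Cy5, and the labels call the pairs biological replicates. The dyes were never exchanged, so a dye effect of a probe and an effect of vitamin C cannot be told apart. Ratios are given as log2 of treated over untreated, as the dye labels put it, and the table of log2 ratios that the authors deposited runs the other way.

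Oxidative phosphorylation is the process by which the inner mitochondrial membrane turns the energy of food into ATP. Complex I takes electrons from NADH and complex II takes them from succinate, ubiquinone carries them to complex III, cytochrome c carries them to complex IV, and complex IV hands them to oxygen. Complexes I, III and IV pump protons, and complex V, the ATP synthase, makes ATP as the protons flow back. The complexes are built from subunits of both genomes, except for complex II, which the nucleus encodes alone. Hepatocytes are rich in mitochondria, and wild-type mice, unlike humans, make their own vitamin C in the liver.

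Nuclear subunit genes are textbook targets of nuclear respiratory factor 1 (NRF1), of GABP, a factor of the ETS family, of YY1 and of the oestrogen-related receptors (ERR). Promoter windows from 250 bases before to 50 bases after the transcription start were on hand for 29 of the 39 genes, from RefSeq on GRCm38.p6. Each window was searched on both strands for GCGCANGCG (NRF1), CCGGAAG (ETS and GABP), AAGATGGC (YY1) and TCAAGGTCA (ERR). The NRF1 letters were found in 8 of the 29 genes (27.6%), against 7.03% of all 27025 genes with such windows. The ETS letters were found in 6 (20.7%, against 9.93%), the YY1 letters in 4 (13.8%, against 3.19%) and the ERR letters in 1, Sdhd (3.45%, against 0.466%). A match is a run of letters and no measure of binding. The stretches below are shown because Sdhd and Cox6a1 had the highest and the lowest ratio of all 39 genes, and because Atp5c1 and Cycs also carry the NRF1 letters. They lie upstream of the start and read 5′ to 3′ on the gene's own strand, which is the minus strand for each. Capitals mark the matches; the Cox6a1 stretch holds 2 overlapping NRF1 matches, another NRF1 match and then the ETS letters, and the Sdhd stretch holds 1 of each.
Sdhd, chr9:50603874-50603943: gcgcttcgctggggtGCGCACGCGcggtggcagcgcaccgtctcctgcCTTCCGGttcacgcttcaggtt
Cox6a1, chr5:115348959-115349135: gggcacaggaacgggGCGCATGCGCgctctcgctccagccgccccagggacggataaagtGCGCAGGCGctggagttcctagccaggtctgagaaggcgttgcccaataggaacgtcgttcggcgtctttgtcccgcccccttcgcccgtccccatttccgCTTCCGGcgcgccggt
Atp5c1, chr2:10080433-10080464: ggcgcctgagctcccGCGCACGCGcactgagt
Cycs, chr6:50566607-50566645: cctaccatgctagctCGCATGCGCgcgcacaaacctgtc
The 8 genes with the NRF1 letters (Atp5c1, Atp5o, Cox6a1, Cycs, Ndufa5, Sdha, Sdhd and Uqcrc1) thus included mean log2 ratios from -0.58 to 0.33, 3 of them above 0 and 5 below.

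The subunit genes were among the brighter features of the arrays. Their mean log2 intensity, over both channels, had a median of 15.58 and ran from 12.01 (Ndufb5) to 18.03 (Cox6a1), against a median of 9.606 over all genes. The scanner reads each array at a high and a low gain and takes bright spots from the low-gain scan; 33 of the 39 genes were read from that scan in both channels on every array, and no spot was saturated. Median probe signals were 379.5 to 530 in the treated channel and 813 to 962 in the untreated channel, and those of negative controls were 62 to 80. Replicate 2 stood apart over all genes, with log ratios that correlated with those of the other 3 arrays at r = -0.178 to 0.0198, against 0.601 to 0.785 among the others. Over the 39 subunit genes replicate 2 did not stand apart in this way: its correlation with the other arrays was 0.551 to 0.769, or 0.41 to 0.70 without Cox6a1, the gene with the lowest ratio. Over the 714 other genes at intensities of 15 to 17, where 30 of the subunit genes lay, it was -0.105 to 0.108. Replicate 1 correlated least over the 39 genes, at 0.335 to 0.551 with the other arrays, or 0.132 to 0.41 without Cox6a1. Replicates 2 to 4 correlated with each other at 0.69 to 0.856 over the 39 genes. These are descriptions across genes, which share an array and its dye and are not independent replicates.

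No subunit gene passed limma's test after Benjamini-Hochberg adjustment, and neither did any other gene: 0% of 31077 were past an adjusted p of 0.05, and the smallest adjusted p was 0.144. At an unadjusted p under 0.05, 11 of the 39 (28.2%) were counted, beside 27.7% of all genes. Of these, 6 had a higher level in treated liver (15.4% of the 39, against 11.1% of all genes) and 5 a lower one (12.8%, against 16.5%). The 6 were Sdhc, Sdhd, Cycs, Cox6c, Cox7a2 and Cox7c, and the 5 were Uqcrc2, Cox6a1, Atp5a1, Atp5b and Atp5c1. The log ratio lay above 0 on all 4 arrays for 7 genes (14.9% of all genes did so) and below 0 on all 4 for 8 (16.1% of all genes). These shares are near the background, so the subunit genes as a list were not set apart from the other genes by their counts. The median of their mean log2 ratios was -0.0083, with 19 above 0 and 20 below, against -0.015 over all genes. The test depended on the arrays used. Without replicate 2, 8764 of the 31077 genes passed an adjusted p of 0.05, and 4 of the 39 subunit genes did (Sdhd, Cox6a1, Atp5a1 and Atp5b). At an unadjusted p under 0.05, 11 subunit genes were then counted (28.2%, beside 43.7% of all genes), so the share of subunit genes was below that of all genes. Without replicate 3, 5 subunit genes were left at an unadjusted p under 0.05 (12.8%, beside 10% of all genes), and without replicate 4, 6 were left (15.4%, beside 13.2%).

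**Figure D1:**
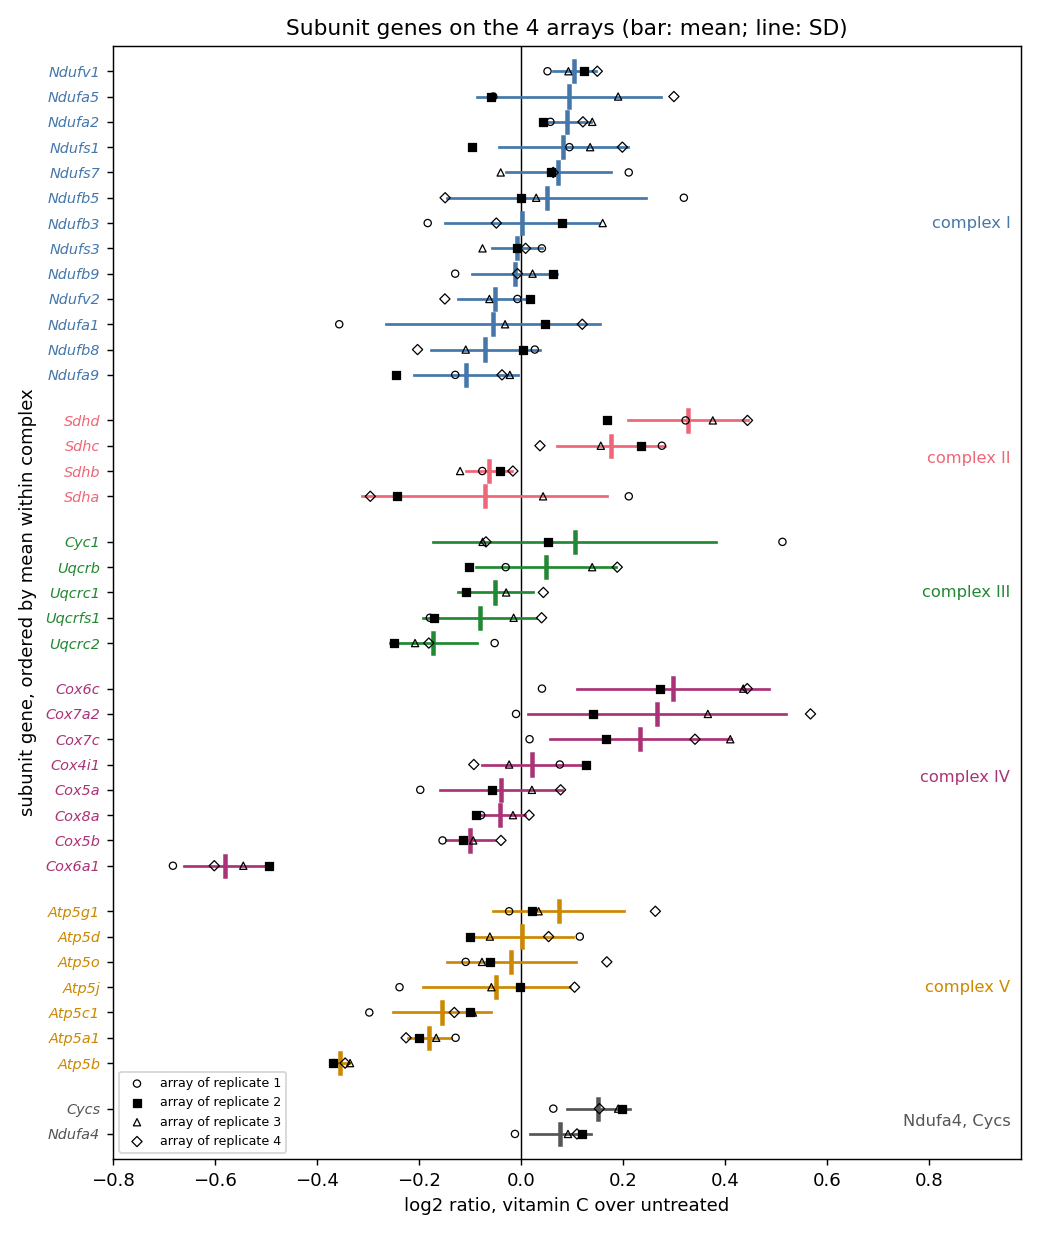
Log2 ratio of treated over untreated liver (horizontal axis) for each of the 39 subunit genes (vertical axis), grouped by complex and ordered by mean. Symbols are the 4 arrays, with replicate 2 filled, vertical bars are means and horizontal lines are SDs. Cox6a1 and Atp5b lie to the left of 0 on every array, at means of -0.58 and -0.35, and Sdhd and Cox6c to the right, at 0.33 and 0.30, while the genes of complex I lie between -0.11 and 0.10.

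The 95% interval of the mean, from limma's spread, lay within a 1.5-fold change either way for 38 of the 39 genes, Cox6a1 being the exception. For all 39 it lay within a 2-fold change. These intervals hold the spread between the 4 arrays and no dye effect. As whole tissue was hybridised, fewer cells of a type and less RNA per cell cannot be told apart.

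Complex I, the entry point for electrons from NADH, showed the narrowest range of mean ratios as reported. This rank depended on the processing. With the running median over intensity taken off, described below, complex V ran from -0.092 to 0.055 and complex I from -0.15 to 0.082. The 13 genes of complex I had a median log2 ratio of 0.0027 as reported, with array medians of 0.027, 0.018, 0.023 and 0.0092. None of them was at an unadjusted p under 0.05. The highest was Ndufv1, the flavin-bearing subunit that oxidises NADH, at 0.052, 0.12, 0.093 and 0.15 on replicates 1 to 4. Its mean of 0.10 ± 0.042 (SD, n = 4) was above 0 on every array (limma, unadjusted p = 0.0602, adjusted p = 0.194). The lowest was Ndufa9, an accessory subunit, at -0.13, -0.24, -0.022 and -0.037, with a mean of -0.11 ± 0.10 (SD, n = 4). All 4 of its values were below 0, and limma gave an unadjusted p of 0.106 (adjusted p = 0.253).

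Among the other core subunits of complex I, which carry its iron-sulfur clusters or hold its catalytic arm together, the means lay close to 0. They were 0.084 for Ndufs1, 0.074 for Ndufs7, -0.0083 for Ndufs3 and -0.050 for Ndufv2. The other accessory subunits ran from Ndufb8 at -0.070 to Ndufa5 at 0.094. Between these ends lay Ndufa1 (-0.055), Ndufb9 (-0.012), Ndufb3 (0.0027), Ndufb5 (0.050) and Ndufa2 (0.091). Ndufa2 was above 0 on all 4 arrays, the only one of these besides Ndufv1. Ndufa1 had 2 probes, both with negative means (-0.055 for the brighter and -0.19 for the dimmer). The SD between the 13 genes was 0.072, against 0.28 between the 8 genes of complex IV, which include Cox6a1 at -0.58. Between the 22 other genes of complex I, described below, the SD was 0.14, with means from -0.24 to 0.22.

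Complex II, succinate dehydrogenase, has 2 membrane anchors and a catalytic head of 2 subunits. Sdhd, an anchor subunit that helps to bind ubiquinone, had the highest mean ratio of the 39 genes. Its log2 ratios were 0.32, 0.17, 0.38 and 0.44 on replicates 1 to 4, a mean of 0.33 ± 0.12 (SD, n = 4) or a 1.26-fold higher level in treated liver. Every array lay above 0, replicate 2 being the lowest (limma, unadjusted p = 0.00181, adjusted p = 0.144). The second anchor, Sdhc, gave 0.28, 0.24, 0.16 and 0.038, with a mean of 0.18 ± 0.11 (SD, n = 4). It too was above 0 on all 4 arrays (unadjusted p = 0.0223, adjusted p = 0.15), though its ratio was only 0.033 with the signals processed by Agilent's software. On 2 arrays its untreated channel alone was read from the low-gain scan, so these ratios lie between 2 scans. Sdhc was no longer at an unadjusted p under 0.05 with such spots left out, nor without replicate 1, 2 or 3.

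Both genes of the catalytic head had means below 0, and the difference between head and anchors was not tested. Sdhb, the iron-sulfur subunit, gave -0.076, -0.041, -0.12 and -0.016, all below 0, with a mean of -0.063 ± 0.045 (SD, n = 4; limma, unadjusted p = 0.217). Sdha, the flavoprotein that oxidises succinate, gave 0.21, -0.24, 0.044 and -0.30, so its arrays fell on both sides of 0 (mean -0.071 ± 0.24 (SD, n = 4); unadjusted p = 0.494). Its second, dimmer probe had a mean of 0.025, so the sign of Sdha differed between its probes. The brighter one was read from the low-gain scan in the untreated channel alone, which makes its ratio one between 2 scans. Over the 4 genes the median was 0.057, and array medians were 0.24, 0.064, 0.10 and 0.011.

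Complex III, which passes electrons from ubiquinol to cytochrome c, had 1 gene of 5 at an unadjusted p under 0.05. This was Uqcrc2, a core subunit without redox centre, at -0.051, -0.25, -0.21 and -0.18 on replicates 1 to 4. All 4 values were below 0, with a mean of -0.17 ± 0.085 (SD, n = 4; limma, unadjusted p = 0.0179, adjusted p = 0.146). The other core subunit, Uqcrc1, gave -0.11, -0.11, -0.029 and 0.044, with a mean of -0.050 ± 0.073 (SD, n = 4; unadjusted p = 0.358), while its dimmer probe had a mean of 0.021. The highest mean belonged to Cyc1, the cytochrome c1 subunit, at 0.11 ± 0.28 (SD, n = 4). That mean rested on 1 array: replicate 1 was at 0.51, and replicates 2 to 4 were at 0.052, -0.075 and -0.068 (unadjusted p = 0.373). Uqcrfs1, the Rieske iron-sulfur protein, had a mean of -0.081 and Uqcrb, an accessory subunit, one of 0.050. The median of the 5 was -0.050, with array medians of -0.051, -0.11, -0.029 and 0.041.

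The carrier between complexes III and IV, cytochrome c (Cycs), gave 0.064, 0.20, 0.19 and 0.15. All 4 values of this probe, the brightest of 3, were above 0, with a mean of 0.15 ± 0.062 (SD, n = 4; limma, unadjusted p = 0.0206, adjusted p = 0.148). Both dimmer probes had means of the other sign, -0.025 and -0.029, and lay on both sides of 0. Ndufa4, now counted with complex IV, gave -0.012, 0.12, 0.092 and 0.11, with a mean of 0.078 ± 0.060 (SD, n = 4; unadjusted p = 0.157).

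Complex IV, cytochrome c oxidase, had the widest range as reported, with both the lowest gene of all and 3 of the 6 genes with higher levels. With the running median over intensity taken off, complex II ranged more widely (-0.10 to 0.34, against -0.041 to 0.32), though that step says nothing for Cox6a1. Cox6a1, the form of subunit VIa found outside heart and skeletal muscle, gave -0.68, -0.49, -0.54 and -0.60 on replicates 1 to 4. Its mean of -0.58 ± 0.081 (SD, n = 4) was a level 0.669 times that of untreated liver, and no array came near 0 (limma, unadjusted p = 3.98e-05, adjusted p = 0.144). Its spots were also the brightest of the 39, with untreated signals of 469400 to 496500 and treated signals of 121300 to 169600 before normalization. Only 3 of all genes tested were brighter.

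On the other side stood small accessory subunits that surround the catalytic core of complex IV. Cox6c gave 0.041, 0.27, 0.44 and 0.44, with a mean of 0.30 ± 0.19 (SD, n = 4), or 1.23-fold (limma, unadjusted p = 0.0109, adjusted p = 0.144). Cox7c gave 0.017, 0.17, 0.41 and 0.34, with a mean of 0.23 ± 0.18 (SD, n = 4), or 1.18-fold (unadjusted p = 0.0242, adjusted p = 0.151). Cox7a2, the form of subunit VIIa made in liver, gave -0.0094, 0.14, 0.37 and 0.57, with a mean of 0.27 ± 0.25 (SD, n = 4; unadjusted p = 0.0405, adjusted p = 0.169). All 3 genes were lowest on replicate 1, close to 0 there, and higher on the other 3 arrays. The second probe of Cox7a2 had the same order of arrays and a mean of 0.12.

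The other 4 genes of complex IV lay near 0: Cox4i1 at 0.022, Cox5a at -0.038, Cox8a at -0.041 and Cox5b at -0.10. Of these, Cox5b was below 0 on all 4 arrays (limma, unadjusted p = 0.0734). The complex as a whole had a median of -0.0081, with 4 genes above 0 and 4 below and array medians of -0.044, 0.036, 0.0031 and 0.047.

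Complex V, the ATP synthase, had 3 of its 7 genes at an unadjusted p under 0.05, all lower (16.5% of all genes were lower). These 3 genes were bright, Atp5b and Atp5c1 at intensities of 17.46 and 17.02 and Atp5a1 at 16.85. Of 149 other genes at 17 or more, 106 were counted as lower too. Of 280 other genes at 16 to 17, 60 were counted as lower. Atp5b, the beta subunit that forms ATP, gave -0.37, -0.37, -0.34 and -0.34, a mean of -0.35 ± 0.017 (SD, n = 4) with the 4 arrays nearly on top of each other (limma, unadjusted p = 0.000214, adjusted p = 0.144). This is the brightest of 3 probes, and the others had means of -0.082 and 0.16. Atp5a1, the alpha subunit, gave -0.13, -0.20, -0.17 and -0.23, with a mean of -0.18 ± 0.042 (SD, n = 4; unadjusted p = 0.00786, adjusted p = 0.144). Atp5c1, the gamma subunit of the rotating stalk, gave -0.30, -0.099, -0.094 and -0.13, with a mean of -0.16 ± 0.096 (SD, n = 4; unadjusted p = 0.0314, adjusted p = 0.159). All 3 were below 0 on every array.

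The rest of complex V stayed within 0.1 of 0. Atp5g1, which encodes subunit c of the membrane ring, was highest, at -0.023, 0.022, 0.035 and 0.26, with a mean of 0.074 ± 0.13 (SD, n = 4; limma, unadjusted p = 0.283). Atp5d (the delta subunit of the stalk) had a mean of 0.0026, Atp5o (the OSCP subunit that joins head and membrane part) one of -0.019 and Atp5j (coupling factor 6) one of -0.048. The median of the 7 was -0.048, and array medians were -0.13, -0.099, -0.076 and 0.054.

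Whether a probe's ratio followed its brightness was examined because the brightest genes of all kinds had low ratios on these arrays. Of 149 other genes at a mean log2 intensity of 17 or more, 141 had a mean below 0 and their median was -0.30. The 4 subunit genes that bright (Cox6a1, Atp5b, Atp5c1 and Cox5a) had a median of -0.25. Across the 39 genes the mean ratio correlated with intensity at r = -0.448 (Spearman's rho -0.431), and across the 35 below an intensity of 17 at r = -0.197. Over all 31077 genes r was -0.0191. The relation across the 39 depended on the processing. With Agilent's signals r was -0.132 (rho 0.0269), and without loess it was -0.595 (rho -0.638). Each gene was therefore set beside the 50 other genes nearest to it in intensity, subunit genes left out. For Cox6a1 these had a median of -0.48, and 16 of them were lower than Cox6a1. For Atp5b the median was -0.24, with 14 of 50 lower, for Atp5a1 -0.14, with 18 lower, and for Atp5c1 -0.16, with 25 lower and 25 higher. The low values of these 4 genes thus lay within the range of other genes as bright. The part of brightness or dye in them was not tested.

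**Figure D2:**
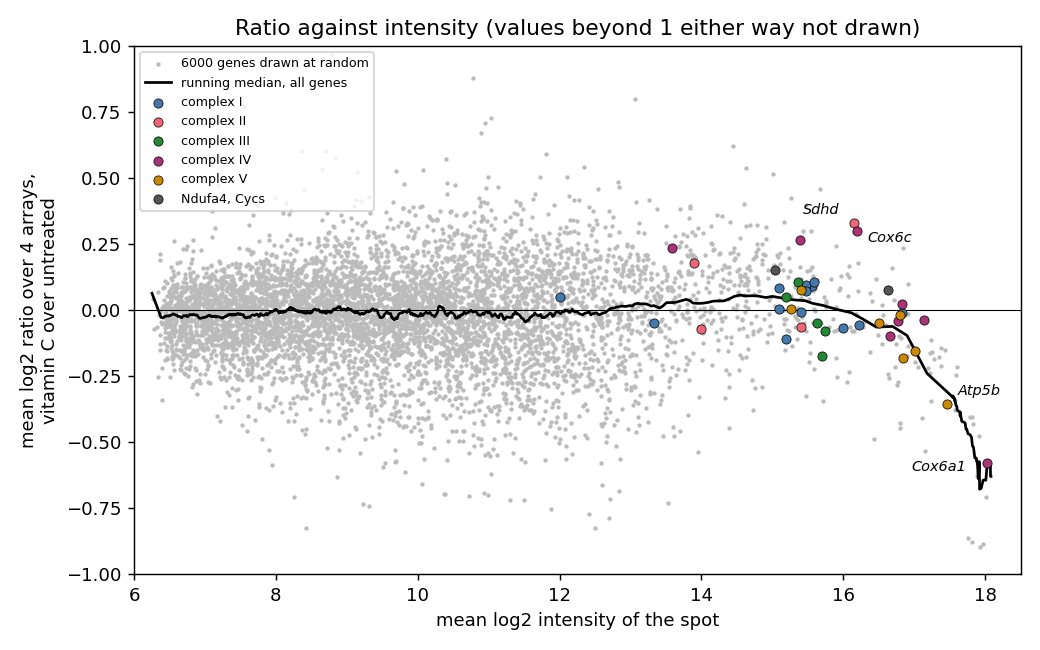
Mean log2 ratio of treated over untreated liver (vertical axis) against mean log2 intensity (horizontal axis). Grey points are 6000 genes drawn at random, the line is the running median over all genes and coloured points are the 39 subunit genes. The line bends down above an intensity of about 17, and Atp5b lies close to it, while Sdhd and Cox6c lie above it.

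Of the 6 genes with higher levels, 4 lay above nearly all of their neighbours. Around Sdhd the 50 nearest genes had a median of -0.019 and a highest value of 0.30, so Sdhd lay above all 50. Cox6c and Cox7c each lay above 49 of 50, and Cox7a2 above 47, while Sdhc lay above 37 and Cycs above 36. Below its neighbours stood Uqcrc2, with 6 of 50 lower and a median of 0.054 around it. Cox5a, whose own mean was -0.038, lay above 49 of its 50 neighbours, which had a median of -0.24.

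When the running median of the ratio over intensity (a window of 501 genes, fewer at the bright end) was taken off each array, 8 of the 39 genes had an unadjusted p under 0.05 (20.5%, beside 26.4% of all genes), 6 higher and 2 lower. Sdhd (0.34), Cox6c (0.32), Cox7c (0.21), Sdhc (0.15) and Uqcrc2 (-0.19) were among both sets. Ndufa4 (0.18), Cox5a (0.17) and Ndufa9 (-0.15) were counted only then. Atp5b came to -0.049, Atp5a1 to -0.092 and Atp5c1 to -0.0015, and none of these 3 was counted. For Cox6a1 the step says nothing: its window held only 7 genes, itself among them, and on replicates 3 and 4 the window's median was its own value. The correlation with intensity became 0.0173, Cox6a1 included. The step itself takes off the trend with intensity, so this value is no separate result.

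Probes of different brightness for the same gene gave a second view. Of 7 genes with more than 1 probe, 4 had probes of both signs: Atp5b, Cycs, Sdha and Uqcrc1. The 3 probes of Atp5b had mean log2 intensities of 17.46, 15.33 and 13.30. Their mean ratios were -0.35 ± 0.017, -0.082 ± 0.19 and 0.16 ± 0.19 (SD, n = 4), so the dimmer the probe, the higher the ratio. The dimmest probe gave 0.36, 0.28, 0.049 and -0.033 on replicates 1 to 4. For Atp5a1 the brighter probe was at -0.18 and the dimmer at -0.018 ± 0.060 (SD, n = 4). In Cycs, Cox7a2 and Ndufa1 the order was the other way, with the brighter probe the higher. Probes of a gene can also differ in the transcripts they bind, and the probe sequences were not used here.

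**Figure D3:**
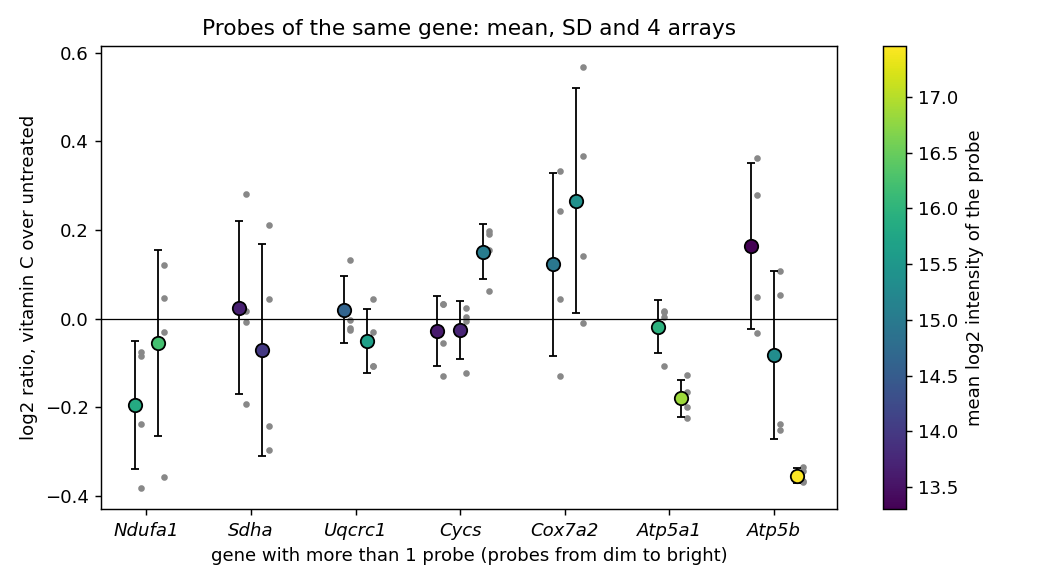
Log2 ratio of treated over untreated liver (vertical axis) for each probe of the 7 subunit genes with more than 1 probe (horizontal axis, probes of a gene from dim to bright). Large points are means coloured by mean log2 intensity, error bars are SDs and small grey points are the 4 arrays. The 3 probes of Atp5b run from 0.16 at the dimmest to -0.35 at the brightest.

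The direction of the complexes' medians turned with the way the arrays were processed, for complexes III to V with Agilent's signals and for complexes I and II without loess. With the signals as Agilent's software processed them, which differ in background correction as well as dye normalization, 30 of the 39 genes were above 0 and the medians were 0.042, 0.035, 0.045, 0.17 and 0.050 for complexes I to V. With no loess step, only a centring of each array, 34 of 39 were below 0 and the medians were -0.16, -0.067, -0.23, -0.25 and -0.27. At an unadjusted p under 0.05 the split was 6 higher and 5 lower as reported, 5 and 1 with Agilent's signals, and 0 and 21 without loess. Over all genes that split was 3463 and 5140 as reported, 2480 and 4167 with Agilent's signals, and 6151 and 8495 without loess. The median over all genes was -0.019 with Agilent's signals and -0.036 without loess. Other genes as bright as the subunit genes were not set beside them in these settings. Without loess 9632 of the 31077 genes passed an adjusted p of 0.05, among them 16 of the 39 subunit genes, all lower. No common direction of a complex is therefore given.

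**Figure D4:**
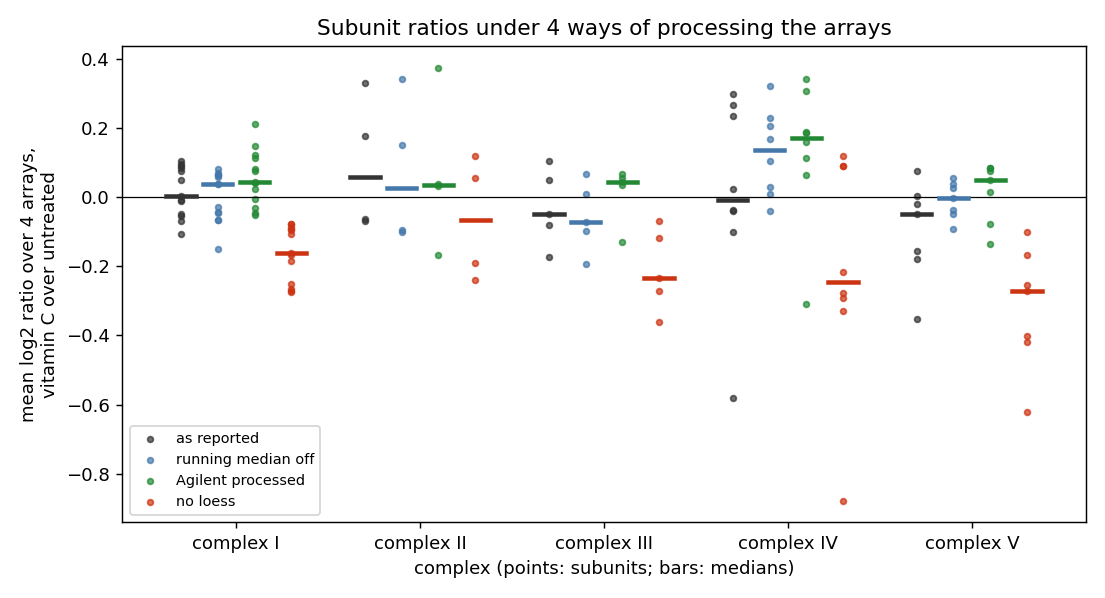
Mean log2 ratio of treated over untreated liver (vertical axis) for the subunit genes of complexes I to V (horizontal axis) under 4 ways of processing, shown by colour. Points are genes and bars are medians. Without loess the medians lie between -0.27 and -0.067, and with Agilent's processed signals between 0.035 and 0.17.

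Single genes are given as reported, with Agilent's signals and without loess. Sdhd was at 0.33, 0.37 and 0.12 in these 3 settings. Cox6c was at 0.30, 0.34 and 0.089, and Cox7c at 0.23, 0.31 and 0.12. These 3 genes were at an unadjusted p under 0.05 in the first pair of settings and not without loess. Uqcrc2 was at -0.17, -0.13 and -0.36, and Cox6a1 at -0.58, -0.31 and -0.88. Atp5c1 went from -0.16 to 0.075 with Agilent's signals.

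Subunits outside the list of 39 were read in the same way. Of 22 other genes of complex I, 6 were higher and 2 lower at an unadjusted p under 0.05 (11.1% and 16.5% of all genes), with a median of 0.060 and 14 above 0. Ndufa7 (0.22 ± 0.081), Ndufa6 (0.20 ± 0.070) and Ndufb10 (-0.24 ± 0.13; SD, n = 4) had the smallest p-values. Of 4 other genes of complex III, 0 were higher and 1 lower (11.1% and 16.5% of all genes). The 1 was Uqcrh, at -0.33 ± 0.11 (SD, n = 4) and an intensity of 17.18. Uqcrq (-0.14) and Uqcr10 (0.094) came next.

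Other genes and tissue forms of complex IV numbered 8, of which 4 were higher and 0 lower (11.1% and 16.5% of all genes), with a median of 0.10. Cox6b1 was at 0.23 ± 0.089, the heart and muscle form Cox7a1 at 0.43 ± 0.29 and Cox6a2, the muscle form of subunit VIa, at 0.13 ± 0.054 (SD, n = 4). The latter pair were dim, with mean log2 intensities of 10.88 and 9.914. Of the 8 genes, 6 had means above 0 and 2 below. The 2 were the tissue forms Cox8b (-0.14 ± 0.14) and Cox6b2 (-0.13 ± 0.20; SD, n = 4), each below 0 on 3 arrays. For Cox8b, at an intensity of 8.084, limma gave an unadjusted p of 0.0780. Of 4 striated muscle markers, all had means above 0 (0.041 to 0.26) and 2 were counted as higher (11.1% of all genes). Their intensities were 7.313 to 9.070. The part of muscle tissue in the values of Cox7a1, Cox6a2 and the other tissue forms was not tested. Of 10 other genes of complex V and its inhibitor, 2 were higher and 1 lower (11.1% and 16.5% of all genes). The genes for subunit c differed: Atp5g2 was at 0.23 ± 0.078 and Atp5g3, one of the brightest, at -0.22 ± 0.059 (SD, n = 4).

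Assembly factors build the complexes without staying in them. Of 36 measured of 39 listed, 15 were higher and 0 lower at an unadjusted p under 0.05 (41.7%, against 11.1% of all genes), 32 means were above 0 and 22 genes were above 0 on all 4 arrays (14.9% of all genes). Their median was 0.13, with array medians of 0.13, 0.081, 0.17 and 0.082. The smallest p-values belonged to Atpaf2, a factor for the ATP synthase (0.26 ± 0.034), to Ndufaf5 of complex I (0.30 ± 0.12) and to Surf1 of complex IV (0.21 ± 0.061; SD, n = 4). These genes were dimmer than the subunits, with a median intensity of 12.53, but brighter than all genes, at 9.606. Of 2023 genes at intensities of 13 to 15, subunit genes left out, 377 were counted as higher. Over the subunit genes' whole range of intensity, 821 of 5245 were. The median of the assembly factors was 0.13 with the running median off, 0.11 with Agilent's signals and 0.017 without loess, where 21 of 36 were above 0.

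Regulators of mitochondrial biogenesis had 7 of 15 genes higher and 2 lower (11.1% and 16.5% of all genes). Their median was 0.15, which became -0.0016 without loess, and their array medians were 0.13, -0.050, 0.19 and 0.19. Among these regulators Twnk, the mitochondrial helicase, was at 0.22 ± 0.11, Esrra, the receptor ERR alpha, at 0.30 ± 0.19 and Yy1 at 0.20 ± 0.10 (SD, n = 4). Genes that feed electrons to ubiquinone or export ATP had 5 of 15 higher and 3 lower (11.1% and 16.5% of all genes), with a median of 0.084. The 3 with the smallest p were all lower: Slc25a5, an ADP/ATP carrier (-0.23 ± 0.060), Etfdh (-0.21 ± 0.079) and Etfa (-0.18 ± 0.058; SD, n = 4), the last pair carrying electrons from fatty acid oxidation.

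The citric acid cycle, which supplies NADH and succinate, had 2 of 13 genes higher and 4 lower (11.1% and 16.5% of all genes). Its median was -0.050. Mdh2 was at -0.32 ± 0.030, Idh3a at -0.46 ± 0.15 and Idh3g, which encodes another subunit of the same enzyme as Idh3a, at 0.20 ± 0.088 (SD, n = 4). None of these genes passed the adjusted test (limma, adjusted p of 0.144 or more). The subunits encoded by mitochondrial DNA were not analysed here.

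Markers of the tissue were measured beside these. Hepatocyte markers were bright (5 measured of 6, median intensity 17.08), with a median of -0.18. At an unadjusted p under 0.05, 2 of 5 were lower (16.5% of all genes), among them Alb at -0.70 and an intensity of 18.00. The median of these markers was 0.062 with the running median off, where 0 were counted as lower. It was 0.0064 with Agilent's signals and -0.44 without loess. No Kupffer cell, endothelial, stellate, cholangiocyte or erythroid marker of the 22 measured was at an unadjusted p under 0.05, beside 27.7% of all genes. Some of these marker sets shifted between the pairs. Array medians were -0.375, 0.21, 0.043 and 0.40 for the Kupffer cell and macrophage markers. For the endothelial markers they were 0.028, -0.26, 0.067 and 0.17. Of 4 T and NK markers 1 was higher and 2 were lower, and of 3 B markers 1 was higher (11.1% of all genes were higher and 16.5% lower). Hba-a1, a globin gene of blood, differed most between arrays, at 0.33, -1.54, -1.52 and -0.24. The part of cell makeup in the subunit genes' values was not tested.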

How the data were processed

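Liver RNA of 4 treated and 4 untreated Wrn mutant mice was hybridised to 4 arrays, all on 1 slide and with the same scan time, per the file headers. Per the file headers, the authors deposited spot intensity values from Agilent's Feature Extraction software, version 10.5.1.1. They also deposited log2 ratios in a table, for which limma is named in the submitters' processing notes; how that table was made is not stated in the sources used here. Across probes its columns correlated with the ratios computed here at r = -0.950 to -0.980, so it was turned. Its medians were 0.0014 to 0.0050, and its exact scale is unknown.

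Background was corrected with normexp (offset 50) on median signals, followed by loess within arrays, in which controls had weight 0 (R 4.3.3, limma 3.58.1). Flagged spots were left out and spots of a probe averaged. Of 41174 probes, 25097 (61.0%) matched 1 symbol in a RefSeq table of GRCm38.p6; the array design names mm9, so probes are given no coordinates. For each gene the brightest probe was used, provided that either channel stood well above background on 3 arrays, and all 39 subunit genes passed. The 4 log2 ratios were tested against 0 with limma (lmFit, eBayes, Benjamini-Hochberg over 31077 genes or accessions, threshold 0.05). Of these, 17085 were genes with a symbol, and shares of all genes are over all 31077. The p-values measure the spread between these 4 pairs. The background correction, the loess, the limma fit and the running median were run on simulated data, and the other steps were not. The livers are paired by array. Alternatives were offset 10, Agilent's processed signals, no loess, scaled arrays, other filters, other probes, the running median taken off, a variance trend, separate channels with and without the array as a block, the deposited table and each replicate left out.

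The subunit genes and all lists were chosen with earlier results of these data known. Named in full were genes at an unadjusted p under 0.05, the highest and lowest of each complex and genes with probes of both signs; of other lists, up to 3 with the smallest p. Sdhb was added after its values were seen, as was Ndufa4's full set of values, Cox5b's p and the Atp5g2 and Atp5g3 pair's comparison. Cox8b and Cox6b2 were added in the same way. The promoter windows, the 50 neighbours in intensity and 3 of the alternatives (channels read from the same scan, low-gain spots left out, dimmest probe) were also chosen after seeing the data.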

Additional observations from a re-analysis of the deposited data

Results flagged for a closer look

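Sets of 4 array values were examined for the 39 subunit genes, for the medians of the complexes and for the median of all subunit genes. Up to 3 genes with the smallest p of each other pathway list were examined too. Of these 69 sets, 1 held an array far from the others. For Idh3a, a citric acid cycle gene, replicate 3 was at -0.6807, while the other 3 arrays lay between -0.40 and -0.36. Chance alone sets about 1 in 20 such sets apart. No subunit gene was set apart in this way.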

How the results depend on the processing

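Under 20 alternatives, 138 recomputed medians and counts stayed within the spread between arrays, or within 1.5 times for counts, and 35 did not. With Agilent's processed signals, 6 subunit genes were at an unadjusted p under 0.05, and the medians were 0.042 (complex I), 0.045 (III), 0.17 (IV), 0.050 (V) and 0.065 (all); Atp5c1 turned to 0.075. Without loess, 9632 genes passed an adjusted p of 0.05, 14646 genes and 21 subunit genes were at an unadjusted p under 0.05, and the medians were -0.16, -0.067, -0.23, -0.25 and -0.27 for complexes I to V and -0.18 over all; Cycs turned to -0.0098. With the mean of a gene's probes 7 subunit genes were counted. With the running median off, the medians were 0.036 (I), 0.14 (IV) and 0.028 (all), and Cox6a1 came to 0.0090, which is no measured change of sign, since its window of 7 genes had its own value as median on 2 arrays. With the dimmest probe, the median of complex III was 0.021, and Cycs (-0.029) and Atp5b (0.16) turned. With channels read from the same scan, complex II, without Sdha, had a median of 0.22; leaving out all low-gain spots kept 4 subunit genes, so no medians were taken. With the 8 channels as separate samples and no replicate block, 4414 genes (14.2%) and 7 subunit genes (17.9%) were at an unadjusted p under 0.05. When the array was added to that fit as a random block, the pairing, 981 of 31066 genes passed an adjusted p of 0.05. Among them were 3 of the 39 subunit genes, Sdhd, Cox6a1 and Atp5b. Leaving out each replicate gave 0 to 8764 genes past an adjusted p, 3119 to 13567 genes and 5 to 11 subunit genes at an unadjusted p under 0.05, and a median for complex I of -0.0082 to 0.028. The cause was not tested for any of these. Only 4 arrays, with no dye swap, limit the precision.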
